A study of Drosophila melanogaster with 6 samples.

Results

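lncRNA:CR40469 and CG40486 are 2 genes of the X chromosome of Drosophila melanogaster, out of 17753 genes in a table of read counts from adult fly heads. They were taken by identifier (FBgn0058469 and FBgn0263830) because their counts were over 30-fold higher in heads of Kdm3 KO flies than in heads of the wBerlin control. Their levels and folds in that comparison are therefore given as a description, with no test. Tests are given for other genes, chosen by position or by function.

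The groups were Kdm3 KO, flies that lack the histone demethylase gene Kdm3, and wBerlin, the control stock, with 3 libraries each. Each library was made from a pool of 50 heads of adults aged 2 to 7 days, kept at 25 °C, after removal of ribosomal RNA. The sources used here do not give the construction of the knockout allele, the genetic background of the stocks or the sex of the flies. Any genetic difference between the stocks other than Kdm3 itself cannot be told apart from loss of Kdm3, and p-values measure the spread between these pools. On the first principal component of all tested genes (44.1% of the variance) Kdm3 KO replicate 2 stood at 62.3, apart from the other 5 libraries at −27.4 to −1.28.

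The tips and the bases of fly chromosome arms border heterochromatin, compact chromatin in which a lysine of histone H3 is methylated and bound by the protein HP1. In mammals, enzymes of the KDM3 family remove methyl groups from that lysine. lncRNA:CR40469 is a noncoding RNA gene, and the sources used here give it no function. CG40486 is a protein-coding gene for which RefSeq lists the synonym FOHSDR, shared with 5 other fly genes; farnesol dehydrogenases of the short-chain dehydrogenase family act in juvenile hormone synthesis in the mosquito Aedes aegypti.

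lncRNA:CR40469 lies on X at 122493 to 122706 on the plus strand (BDGP6, Ensembl annotation). It has 1 exon of 214 bases, no coding sequence, and the lowest coordinates of the 2653 X genes in the table. CG40486 lies on X at 22958856 to 22960091 on the minus strand, near the other end, with 36 listed X genes beyond it. It has 2 exons, separated by an intron of 276 bases, and 2 annotated transcripts that differ by 20 bases at the 3′ end. Both transcripts code for the same 247 residues, with 126 bases of 5′ UTR. No other annotated gene overlaps either gene, so neither has an annotated antisense partner. The annotation also gives transposable elements. A HeT-A element, one of the retrotransposons that make up fly telomeres, spans 116487 to 122492 on the plus strand and ends at the base before lncRNA:CR40469 begins. A 70-base INE-1 element, a short repeat common near heterochromatin, lies on the minus strand at 22959290 to 22959359, inside the intron of CG40486 and outside its exons. Elements lie within the span of 8.75% of tested X genes. Reads of the elements themselves were not analysed here, and whether any were counted for lncRNA:CR40469 was not tested.

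Reads of lncRNA:CR40469 numbered 16736, 11711 and 16981 in Kdm3 KO replicates 1, 2 and 3, against 305, 179 and 196 in wBerlin replicates 1, 2 and 3. Scaled to effective library size as counts-per-million (CPM), these were 665, 537 and 754 CPM in Kdm3 KO and 11.0, 6.53 and 8.97 CPM in wBerlin. Every knockout pool was high and every control pool was low. The lowest Kdm3 KO library stood 49.0 times above the highest wBerlin library. The means were 652 ± 109 CPM in Kdm3 KO and 8.82 ± 2.21 CPM in wBerlin (SD, n = 3 each), a 73.9-fold rise (log2 fold change 6.21). From the libraries' own log2 values the difference was 6.23 with a standard error of 0.26.

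Reads of CG40486 numbered 790, 391 and 580 in Kdm3 KO replicates 1, 2 and 3, against 17, 28 and 17 in wBerlin replicates 1, 2 and 3. The levels were 31.4, 17.9 and 25.7 CPM in Kdm3 KO and 0.611, 1.02 and 0.778 CPM in wBerlin. Here too the groups stood apart, and the lowest Kdm3 KO library was 17.5 times above the highest wBerlin library. The means were 25.0 ± 6.77 CPM in Kdm3 KO and 0.804 ± 0.207 CPM in wBerlin (SD, n = 3 each), a 31.0-fold rise (log2 fold change 4.95). The difference of the libraries' log2 values was 4.96 with a standard error of 0.32. Groups that do not overlap were found for 18.7% of all tested genes, and for 9.35% with Kdm3 KO higher. For these 2 genes the choice by fold made a lack of overlap likelier, so nothing is read from it.

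**Figure D1:**
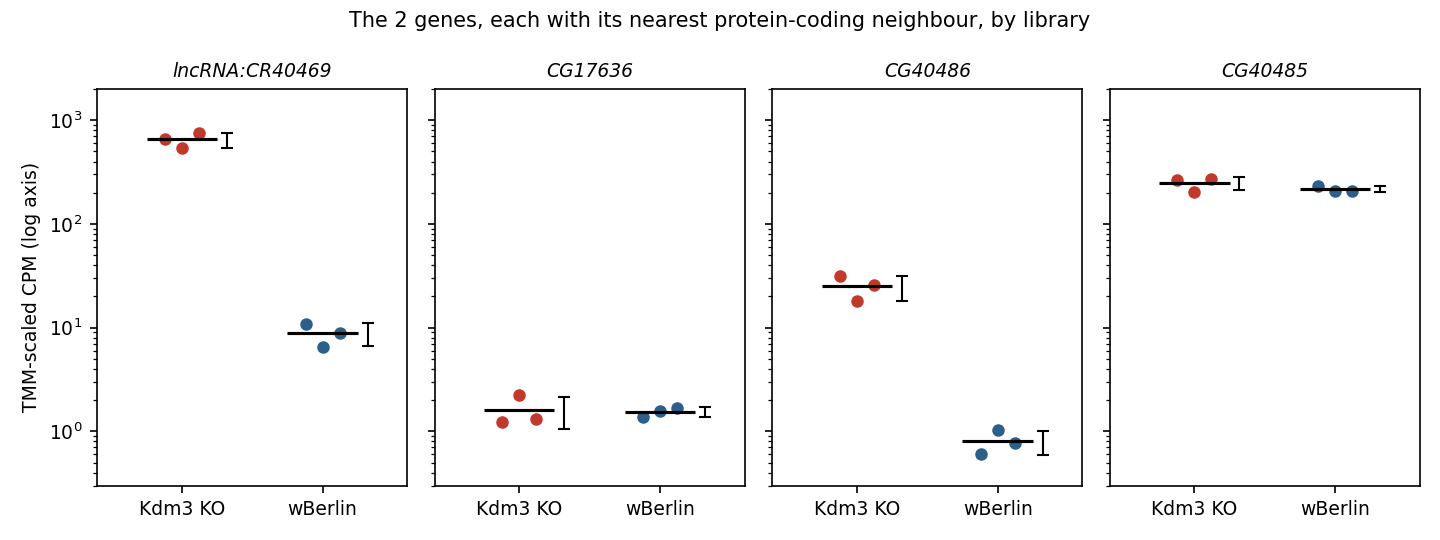
CPM (log axis) of lncRNA:CR40469, CG40486 and the nearest protein-coding neighbour of each (CG17636 and CG40485) in the 3 Kdm3 KO and 3 wBerlin libraries; points are libraries, lines are means and bars beside them are ± 1 SD. lncRNA:CR40469 sits between 537 and 754 CPM in Kdm3 KO and between 6.53 and 11.0 CPM in wBerlin, while CG17636 lies between 1.23 and 2.25 CPM in Kdm3 KO and between 1.36 and 1.69 CPM in wBerlin.

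The control libraries were not empty. As a share of the library's own total, CG40486 made up 30.9, 19.7 and 24.2 CPM in Kdm3 KO replicates 1, 2 and 3, against 0.602, 1.02 and 0.775 CPM in wBerlin replicates 1, 2 and 3. The exact binomial 95% intervals of the wBerlin shares ran from 0.351 to 0.964, 0.677 to 1.47 and 0.451 to 1.24, and all 3 overlap one another. Those shares lie above the 0.106 to 0.137 CPM that 3 counts represent in the wBerlin libraries. For lncRNA:CR40469 the share was 654, 590 and 710 CPM in the Kdm3 KO libraries, against 10.8, 6.52 and 8.94 in the wBerlin libraries. Its wBerlin replicates 1 and 2 had intervals of 9.62 to 12.1 and 5.60 to 7.54. Intervals and floors cover counting error only and leave out the spread between pools.

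Within a group the spread was modest beside the difference between groups. The highest library held 1.40 times the lowest in Kdm3 KO and 1.68 times in wBerlin for lncRNA:CR40469, and 1.75 times in Kdm3 KO and 1.67 times in wBerlin for CG40486. Kdm3 KO replicate 2 was the lowest knockout library for both genes, by 0.27 and 0.44 below the group mean on the log2 scale. It was also the lowest knockout library for CG40485, by 0.25. In wBerlin the 2 genes took opposite orders: lncRNA:CR40469 was highest in replicate 1 and lowest in replicate 2, and CG40486 was lowest in replicate 1 and highest in replicate 2.

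Per length, lncRNA:CR40469 was among the most abundant head RNAs in Kdm3 KO. It reached 3047 ± 509 CPM per kb of exon in Kdm3 KO and 41.2 ± 10.3 CPM per kb in wBerlin (SD, n = 3 each). Among 13981 tested genes with an annotated length it ranked 16 in Kdm3 KO and 1762 in wBerlin. Among the 1364 tested genes of biotype ncRNA it ranked 6 in Kdm3 KO and 21 in wBerlin. The 5 noncoding genes above it in Kdm3 KO were lncRNA:noe, RNaseP:RNA (the RNA subunit of the enzyme that trims tRNA precursors), sncRNA:254, lncRNA:CR34335 and RNaseMRP:RNA, all above it in wBerlin as well. RNaseMRP:RNA, the nearest of these in the order, had 3244 ± 329 CPM per kb in Kdm3 KO and 3542 ± 324 CPM per kb in wBerlin, so in Kdm3 KO its level and that of lncRNA:CR40469 lay within their spread. Next below was lncRNA:mimi, at 597 ± 65.7 CPM per kb in Kdm3 KO and 707 ± 126 CPM per kb in wBerlin. A level per kb of a gene as short as 214 bases depends more than that of a long gene on fragment size, which the sources used here do not give.

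CG40486 per length ranked 2894 of those 13981 genes in Kdm3 KO and 11568 in wBerlin, at 26.1 ± 7.05 CPM per kb in Kdm3 KO and 0.837 ± 0.215 CPM per kb in wBerlin (SD, n = 3 each). By log2 fold change lncRNA:CR40469 ranked 1 and CG40486 ranked 4 among 14069 tested genes, with CG16826 (56.6-fold, arm 2L) and whe between them. On X, of the genes whose mean was 2 CPM or more, whe also exceeded 30-fold (32.4-fold), and its Kdm3 KO libraries held 17.0, 11.6 and 2.09 CPM against 0.215, 0.438 and 0.275 CPM in wBerlin. Just below 30-fold stood CG34324 (21.0-fold), which was at 26.0 CPM in Kdm3 KO replicate 2 and at most 0.843 CPM in any of the other 5 libraries. The next below was w, at 15.2-fold. No single knockout library carried the rise of lncRNA:CR40469, whose 3 Kdm3 KO libraries were 75.4-, 60.9- and 85.4-fold above the wBerlin mean. For CG40486 they were 39.1-, 22.3- and 32.03-fold above it.

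**Figure D2:**
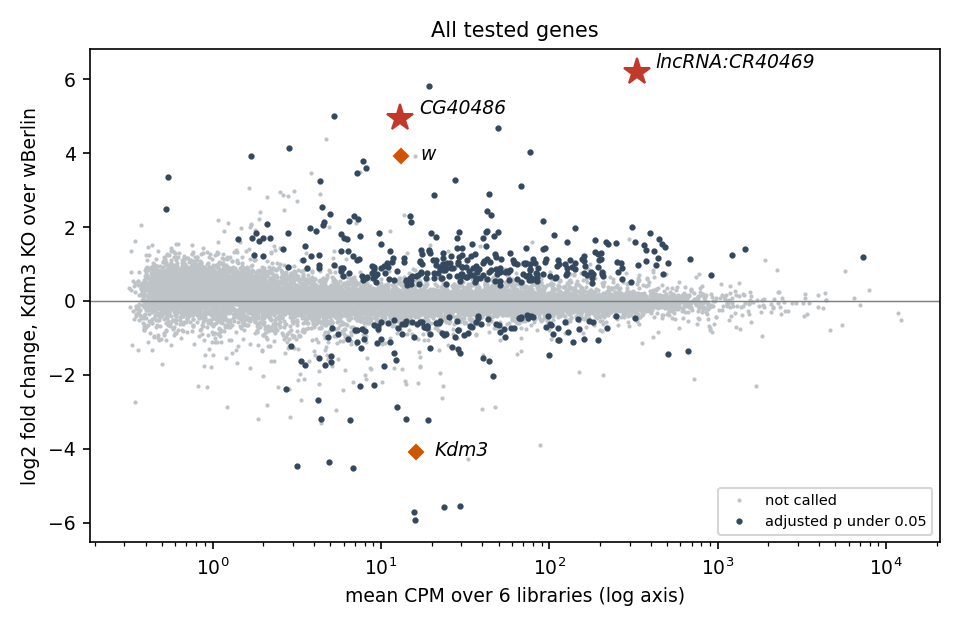
Log2 fold change of Kdm3 KO over wBerlin against mean CPM over the 6 libraries (log axis) for all 14069 tested genes; dark points have an adjusted p under 0.05. Stars mark the 2 genes and diamonds mark w and Kdm3. lncRNA:CR40469 lies at the upper right, at 6.21 on the log2 scale and a mean of 330.4 CPM, and CG40486 at 4.95 and a mean of 12.9 CPM.

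Kdm3 and w were read as checks of the labels and stocks. Kdm3, the targeted gene on arm 3R, held 3.86, 0.642 and 0.710 CPM in Kdm3 KO and 32.5, 30.1 and 28.7 CPM in wBerlin (log2 fold change −4.09, SE 0.49, edgeR adjusted p = 0.00344). Kdm3 KO replicate 1 kept more Kdm3 reads than the other knockout libraries and stayed below every wBerlin library. The eye pigment transporter gene w, on X at 2790599 to 2796466, held 22.1, 23.1 and 29.0 CPM in Kdm3 KO and 1.51, 1.79 and 1.56 CPM in wBerlin (log2 fold change 3.93, SE 0.16, edgeR adjusted p = 3.91e-06).

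No gene beside lncRNA:CR40469 was called. Within 250 kb, all on the side of higher coordinates, the table lists 26 genes, of which 20 were tested. None passed edgeR's quasi-likelihood test with Benjamini-Hochberg adjustment over all tested genes at an adjusted p under 0.05, where 3.07% of all tested genes did (2.15% higher and 0.917% lower in Kdm3 KO). Over the whole table that was 303 higher and 129 lower, against 268 higher and 467 lower without wBerlin replicate 1 and 286 higher and 266 lower with no filter on low counts. Of the 20 neighbours, none changed by at least 2-fold in either direction, against 3.59% of all tested genes. DESeq2 and limma voom called none of them either, against 6.51% and 2.77% of all tested genes; at 20 genes a count of 0 is near these shares. At an unadjusted p under 0.05 there were 4, with 2 higher and 2 lower, against 14.6% of all tested genes. Their median log2 fold change was 0.00 against 0.04 over all tested genes, and the range was −0.39 to 0.81. The highest value was that of the noncoding gene lncRNA:CR43863, 29.0 kb away, at 1.47, 1.47 and 1.29 CPM in Kdm3 KO and 0.754, 0.876 and 0.778 CPM in wBerlin (edgeR adjusted p = 0.262).

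The nearest gene, CG17636, lies 1663 bases away on the opposite strand. It held 1.23, 2.25 and 1.33 CPM in Kdm3 KO and 1.36, 1.57 and 1.69 CPM in wBerlin, a log2 fold change of 0.05 (SE 0.33, edgeR adjusted p = 0.963). Further genes among the nearest were tyn, lncRNA:CR45473 and CG17707, with log2 fold changes of 0.29, 0.26 and 0.02 and edgeR adjusted p of 0.169, 0.492 and 0.969. The groups of tyn did not overlap, at 15.6 ± 0.553 CPM in Kdm3 KO and 12.7 ± 0.300 CPM in wBerlin (SD, n = 3 each). The span of tyn overlaps those of RhoGAP1A, lncRNA:CR45473, CG17707 and lncRNA:CR43863, so reads could be split between them. G9a, a histone H3 methyltransferase gene in the same window, had a log2 fold change of 0.02 (edgeR adjusted p = 0.950).

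Within 250 kb of CG40486 the table lists 35 genes, of which 28 were tested and 0 were called by edgeR, DESeq2 or limma voom, against 3.07%, 6.51% and 2.77% of all tested genes. At 28 genes a count of 0 is near those shares. The median log2 fold change was 0.08, with a range of −0.79 to 0.68. The 1 gene with an unadjusted p under 0.05 (14.6% of all tested genes), CG17167, lies 108 kb away and had a log2 fold change of 0.42 (edgeR adjusted p = 0.0762). It passed edgeR's test without Kdm3 KO replicate 2 (adjusted p = 0.0461), and with scaling by the upper quartile (0.0455), scaling by total count (0.0387) or a filter of 5 CPM (0.0233). In the 4 libraries left without Kdm3 KO replicate 2 and wBerlin replicate 1, CG17167 and CG40485 passed (adjusted p = 0.0311 and 0.0269). Of the 7 untested genes in this window 6 are listed at 0 in every library, among them stnA and stnB, which share their annotated span.

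lncRNA:CR45502 begins 28 bases past the annotated 3′ end of CG40486 on the same strand. It held 0.477, 0.734 and 0.311 CPM in Kdm3 KO and 0.215, 0.547 and 0.687 CPM in wBerlin, a log2 fold change of 0.08 (SE 0.57, edgeR adjusted p = 0.968). The groups overlap, with 12, 16 and 7 reads in Kdm3 KO and 6, 15 and 15 reads in wBerlin replicates 1, 2 and 3. No rise of the size of that of CG40486 was seen there, and at this depth a small change could be missed. On the other side CG40485 ends 517 bases away, on the same strand and upstream of CG40486. CG40485 held 264, 205.4 and 270 CPM in Kdm3 KO and 232, 207 and 209 CPM in wBerlin, a log2 fold change of 0.19 (SE 0.12, edgeR adjusted p = 0.560). In the 4 libraries named above its log2 fold change was 0.36. The other 8 of the 10 nearest tested genes had log2 fold changes of −0.05 to 0.16 (edgeR adjusted p = 0.812 to 0.992). Per kb of exon, CG40486 stood at 21.7%, 15.9% and 17.4% of CG40485 in Kdm3 KO replicates 1, 2 and 3, against 0.480%, 0.903% and 0.679% in wBerlin replicates 1, 2 and 3.

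**Figure D3:**
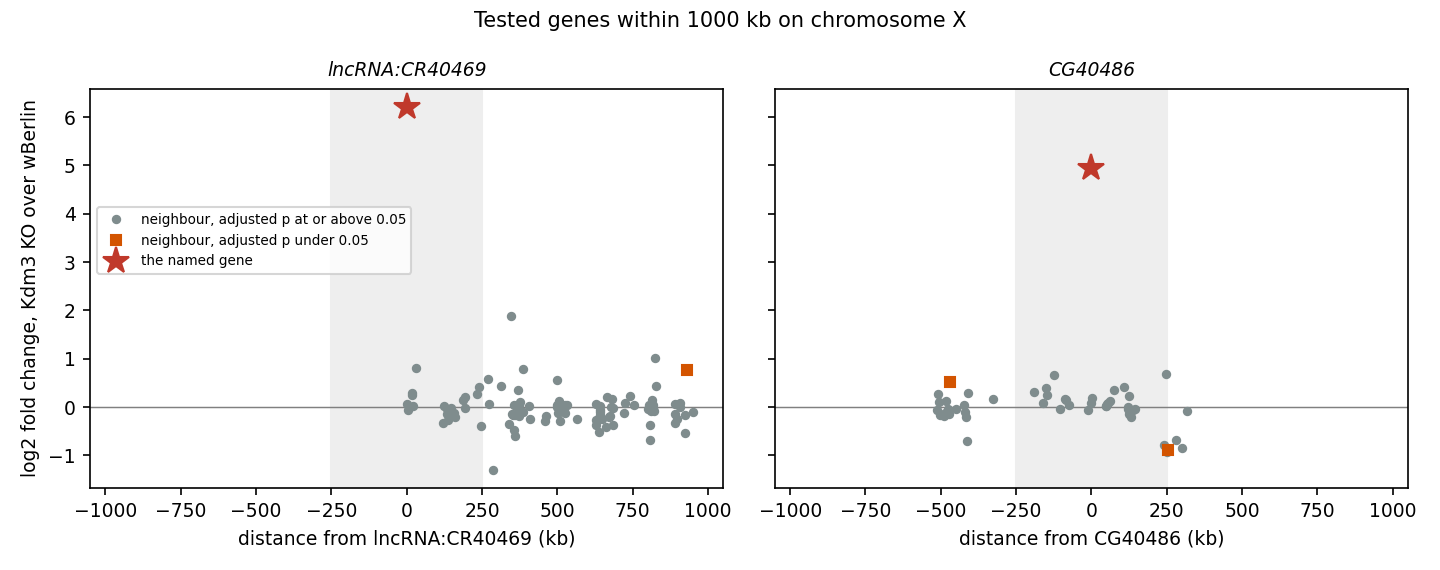
Log2 fold change of Kdm3 KO over wBerlin for tested X genes within 1000 kb of lncRNA:CR40469 (left) and CG40486 (right) against distance in kb; the shaded band is 250 kb to each side, stars are the 2 genes and squares are neighbours with an adjusted p under 0.05. Inside the bands all neighbours lie between −0.79 and 0.81, while the stars lie at 6.21 and 4.95.

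Widening the window to 1000 kb brought in 1 called gene around lncRNA:CR40469 and 2 around CG40486. That is 0.971% and 4% of those tested, against 3.07% of all tested genes. Around lncRNA:CR40469 edgeR called 1 of 103 tested genes, CG14629, 929 kb away, at 203 ± 35.9 CPM in Kdm3 KO and 120 ± 23.7 CPM in wBerlin (SD, n = 3 each, edgeR adjusted p = 0.0492). Its call was lost in each fit without Kdm3 KO replicate 1 or 3 or any 1 wBerlin replicate (adjusted p up to 0.131) and by limma voom (0.0510). Around CG40486 it called 2 of 50. The noncoding gene lncRNA:CR43493, at −468 kb (lower coordinates), rose by 0.52 on the log2 scale (edgeR adjusted p = 0.0398), a call lost in the same 5 fits (adjusted p up to 0.164), in the 4 libraries, with no filter and with upper quartile scaling. The ribosomal RNA pseudogene 28SrRNA-Psi:CR45859, 254 kb away, fell by 0.89 on the log2 scale (edgeR adjusted p = 0.0129, and 0.0570 without Kdm3 KO replicate 3), and its reads can be shared with other ribosomal RNA copies.

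Across the rest of X, 32 genes rose and 17 fell among 2158 tested, which is 2.27%, against 3.18% of 11821 tested genes on the autosomal arms. The median log2 fold change was −0.02 on X and 0.05 on the autosomal arms. The balance of rises and falls on X was not stable. It was 50 higher and 43 lower with upper quartile scaling, 29 and 43 with no filter, 57 and 56 with the filter of 5 CPM, 60 and 62 by DESeq2 and 47 and 48 with the replicate block. Without wBerlin replicate 1 it was 29 higher and 67 lower, and without wBerlin replicate 3 it was 23 and 29. The X count was 100 without Kdm3 KO replicate 2, 31 without Kdm3 KO replicate 3, 96 without wBerlin replicate 1 and 28 without wBerlin replicate 2, so single libraries moved it by over 1.5 times. Among noncoding genes other than lncRNA:CR40469, 11 rose and 9 fell of 1363 tested (1.47%, against 3.07% of all tested genes). Their median was 0.18 and their highest log2 fold change 3.92. On X, 1 noncoding gene rose and 0 fell of 152 tested by edgeR (0.658%). There were 16 at an unadjusted p under 0.05 (14.6% of all tested genes). DESeq2 called 3 higher and 1 lower and limma voom 1 higher, against 6.51% and 2.77% of all tested genes.

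CG40486 was compared with the other genes that carry the synonym FOHSDR. In Kdm3 KO it ranked 3 of 6 per kb, between CG3301 (55.3 ± 7.54 CPM per kb) and CG9360 (24.9 ± 3.11 CPM per kb), and in wBerlin it ranked 5, above CG8757 alone (SD, n = 3). In Kdm3 KO its level, that of CG9360 and that of Antdh, an antennal dehydrogenase, lay within their spread. Of the 4 tested relatives edgeR called 0, DESeq2 0 and limma voom 0, against 3.07%, 6.51% and 2.77% of all tested genes. At 4 genes a count of 0 is near those shares. At an unadjusted p under 0.05 there was 1 (14.6% of all tested genes). That gene, Antdh, was at 22.8 ± 6.60 CPM per kb in Kdm3 KO and 62.5 ± 38.1 CPM per kb in wBerlin (SD, n = 3 each; log2 fold change −1.45, edgeR adjusted p = 0.155). Its wBerlin libraries held 19.2, 77.3 and 91.1 CPM per kb, with replicate 1, the control library lowest in antenna markers, within the Kdm3 KO range. Without wBerlin replicate 1 its edgeR adjusted p was 0.00225. CG3301 and CG9360 had log2 fold changes of 0.16 and 0.10 (edgeR adjusted p = 0.613 and 0.776).

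**Figure D4:**
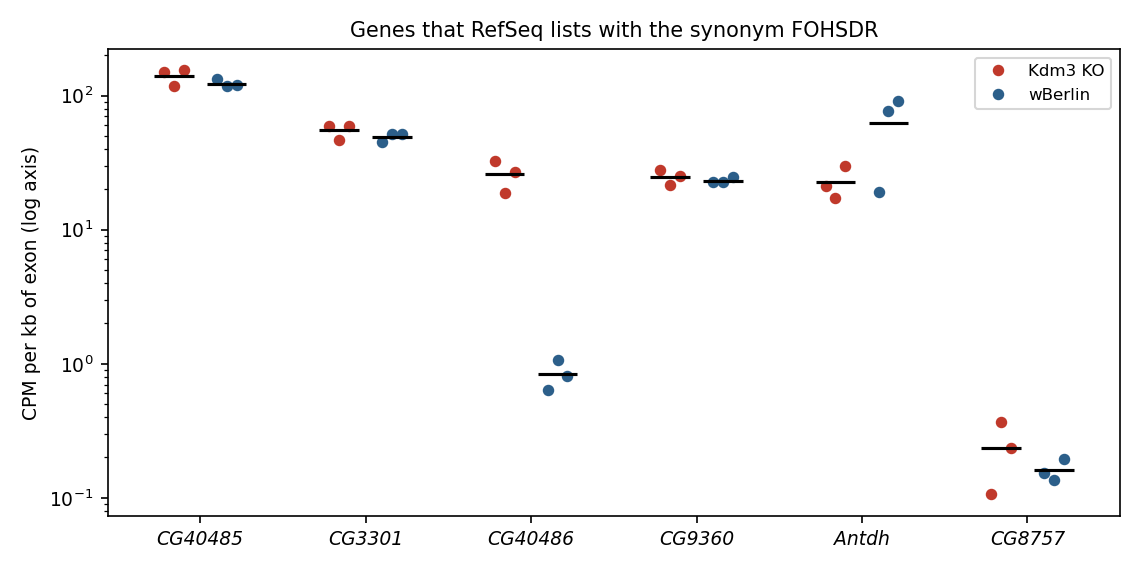
CPM per kb of exon (log axis) of the 6 genes that RefSeq lists with the synonym FOHSDR, in Kdm3 KO and wBerlin libraries (points) with group means (lines). CG40486 lies between 18.7 and 32.7 CPM per kb in Kdm3 KO and between 0.636 and 1.06 CPM per kb in wBerlin.

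Genes that set or read silent chromatin were compared as lists. Their counts stand beside 3.07% of all tested genes called by edgeR and 14.6% with an unadjusted p under 0.05, so in lists of this size a count of 0 or 1 is near the share over all genes. Of 15 heterochromatin genes 1 fell and 0 rose by edgeR (1 and 0 by DESeq2 and limma voom), with a median log2 fold change of −0.10 over the list. The gene that fell was wde, whose product is the cofactor of the H3 methyltransferase encoded by egg. It was at 46.4 ± 2.47 CPM in Kdm3 KO and 77.1 ± 4.34 CPM in wBerlin (SD, n = 3 each; log2 fold change −0.73, SE 0.09, edgeR adjusted p = 0.00353). Su(var)3-9, another H3 methyltransferase gene, had a log2 fold change of −0.43 (edgeR adjusted p = 0.169).

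Of 30 small RNA silencing genes (the piwi, siRNA and microRNA pathways) 0 were called by edgeR, DESeq2 or limma voom. Over all tested genes the shares were 3.07%, 6.51% and 2.77%. In this list 2 genes had an unadjusted p under 0.05 (14.6% of all tested genes), and the median was 0.03. The 2 genes were del, at −0.51, and qin, at 0.34 (edgeR adjusted p = 0.210 and 0.277). Of 8 tested telomere capping genes 0 were called by the same 3 tools, 2 had an unadjusted p under 0.05, and the median was −0.21. These were mre11 and rad50, which act in DNA break repair, at −0.36 and −0.25 (edgeR adjusted p = 0.136 and 0.222), and moi was at 0 in every library.

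Of 8 dosage compensation genes, which raise transcription of the male X, edgeR and limma voom called 0. DESeq2 called 2 (6.51% of all tested genes), lncRNA:roX1 and lncRNA:roX2, the same 2 that had an unadjusted p under 0.05 by edgeR. lncRNA:roX1 was at 1356 ± 189 CPM in Kdm3 KO and 1017 ± 19.8 CPM in wBerlin (SD, n = 3 each; log2 fold change 0.42, edgeR adjusted p = 0.140). lncRNA:roX2 was at 198 ± 29.1 CPM in Kdm3 KO and 132 ± 18.8 CPM in wBerlin (SD, n = 3 each; log2 fold change 0.59, edgeR adjusted p = 0.0538). lncRNA:roX2 passed edgeR's test without Kdm3 KO replicate 2 (adjusted p = 0.0488) or without wBerlin replicate 3 (0.0485). The protein subunit gene mof was at −0.19 (edgeR adjusted p = 0.479), and the list's median was −0.05.

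The genes most like the 2 genes over the 6 libraries were ranked by correlation. Pearson's r of log2 CPM was computed against the 10207 genes that averaged 2 CPM or more. It is a description over 6 shared libraries, and the split into 3 and 3 dominates it. The closest to lncRNA:CR40469 were Osi2, CG4757, CG6912, CG4259 and w, with r between 0.993 and 0.995 and folds of 13.9, 25.7, 7.26, 1.58 and 15.2. The closest to CG40486 were NimB5, Osi2, GstD3 (a glutathione transferase gene), CG32115 and CG43448, with r between 0.992 and 0.995 and folds of 1.69, 13.9, 4.45, 2.34 and 1.89. Osi2 was in both sets and held 15.8, 12.3 and 15.5 CPM in Kdm3 KO and 1.11, 1.13 and 0.870 CPM in wBerlin. The 2 genes had an r of 0.986 with each other and each ranked 14 in the other's order.

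Markers of other tissues differed between libraries, and in whole heads fewer cells of a type and less RNA per cell cannot be told apart. Over all tested genes 3.07% were called by edgeR, 6.51% by DESeq2 and 2.77% by limma voom, and 14.6% had an unadjusted p under 0.05. In marker sets of this size a count of 0 or 1 called is near those shares. Of 6 antenna markers 4 were lower by edgeR, 5 by DESeq2 and 0 by limma voom, with a summed level of 12.7 to 29.7 CPM in Kdm3 KO and 40.7 to 352 CPM in wBerlin, lowest there in replicate 1. Of 3 flight muscle markers 0 were called by edgeR, DESeq2 or limma voom (2 at an unadjusted p under 0.05), with summed levels of 25.9, 1378 and 55.0 CPM in Kdm3 KO replicates 1, 2 and 3 and 26.3 to 249 CPM in wBerlin. Of 4 tested gut markers 2 were higher by each of the 3 tools. The gut sums were 22.7, 133 and 26.8 CPM in Kdm3 KO replicates 1, 2 and 3 and 11.3 to 17.3 CPM in wBerlin. Replicate 2 set the top of the knockout range. Mal-A1, not called by edgeR, held 8.11, 71.1 and 7.46 CPM in Kdm3 KO replicates 1, 2 and 3. The 2 called by edgeR, Amy-p and Amy-d, were each higher in all 3 Kdm3 KO libraries than in any wBerlin library. Of 6 tested fat body markers 1 was higher by edgeR, Yp3, with 3 by DESeq2 and 1 by limma voom (sum 17614 to 22690 CPM in Kdm3 KO, 7640 to 12662 CPM in wBerlin), and apolpp was at 0. Of 4 female-enriched markers 2 were higher by edgeR, Yp3 and fit, with 4 by DESeq2 and 2 by limma voom. Yp1, Yp2 and Yp3 are in both the fat body and the female-enriched list, so the counts of these lists are not independent. They were the 3 fat body markers called by DESeq2 and made up most of the fat body sum. Of the other tested fat body markers, Lsp2 and Lsd-1 had log2 fold changes of −0.10 and −0.003. Fbp1 was at 120 CPM in Kdm3 KO and 39.3 CPM in wBerlin (edgeR adjusted p = 0.0973). Of 3 male-enriched markers 1 was lower by edgeR, to; the other 2, lncRNA:roX1 and lncRNA:roX2, had log2 fold changes of 0.42 and 0.59 and were higher by DESeq2. The call of Yp3 was lost without wBerlin replicate 2, and that of to without Kdm3 KO replicate 2 or 3 or wBerlin replicate 1 or 2. Of 12 tested testis markers 0 were called by the 3 tools, with 0 at an unadjusted p under 0.05 (sum 17.0 to 36.4 CPM in Kdm3 KO, 20.9 to 25.3 CPM in wBerlin). None of 6 neuron, 6 photoreceptor and 4 glia markers, the defining markers of a head, was called by those tools or had an unadjusted p under 0.05, and all were detected. The part of the antenna, gut, fat body and sex-enriched markers in the rise of the 2 genes was not tested. Without Kdm3 KO replicate 2 and wBerlin replicate 1, the libraries that stand apart in muscle and antenna markers, the folds were 92.1 for lncRNA:CR40469 and 31.2 for CG40486. In those 4 libraries the antenna markers still summed to 12.7 and 23.3 CPM in Kdm3 KO and 248 and 352 CPM in wBerlin. This fit therefore cannot show the part of tissue content in the rise.

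**Figure D5:**
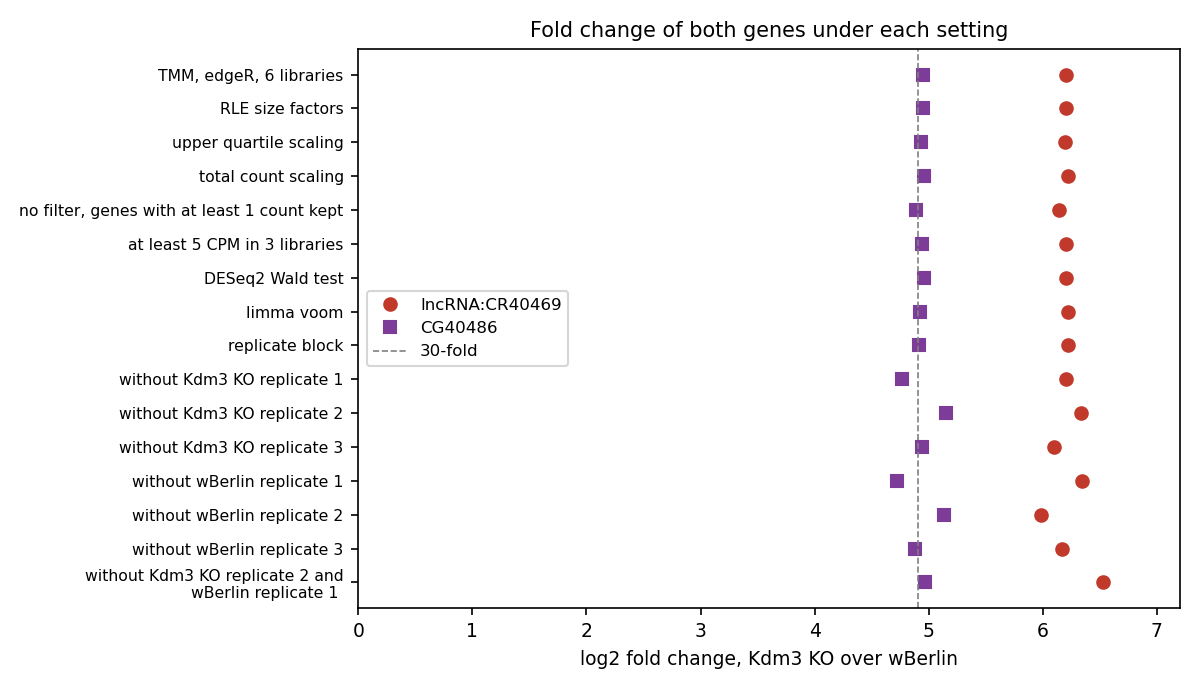
Log2 fold change of Kdm3 KO over wBerlin for lncRNA:CR40469 (circles) and CG40486 (squares) with all 6 libraries and under 15 other settings; the dashed line is 30-fold. lncRNA:CR40469 lies between 63.2- and 92.1-fold under the other settings, always to the right of the line, and CG40486 between 26.3- and 35.5-fold, on both sides of it.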

How the data were processed

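RNA of 6 head pools was sequenced after Ribo-Zero depletion, per the labels' protocols. The authors deposited raw read counts per gene. Per the submitters' processing notes the tools were STAR, SAMtools, HTSeq and DESeq2 and the build was BDGP6. The sources used here do not give their versions, settings, strand use or treatment of reads with several matches. Whether other copies of either gene share their reads was not tested, and no sequence was used. Library totals were 25571878, 19850981 and 23926397 in Kdm3 KO and 28237382, 27468630 and 21935654 in wBerlin. Of 17753 genes, 17626 matched the Ensembl annotation, and all 301 off the 5 large arms were at 0.

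The tests used edgeR 4.0.16 in R 4.3.3 (TMM, filterByExpr, quasi-likelihood, genotype only, two-sided) with Benjamini-Hochberg adjustment over 14069 genes; CPM are TMM-scaled. DESeq2 1.42.0, limma 3.58.1 (voom), other scalings and filters, and fits without each library were alternatives, and edgeR, DESeq2 and voom were first tested on simulated data.

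Named genes were the 2 genes, Kdm3, w, the 5 nearest tested genes on each side, the 5 closest by Pearson's r, X genes around 30-fold, and from each list no more than 3 called genes (or the 2 of lowest p). The members and lists were chosen with earlier results of these data known. The FOHSDR and juvenile hormone lists, G9a, mof, the top noncoding genes and other genes outside the rule were added later. A result the rule names is not reported here.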

Additional observations from a re-analysis of the deposited data

How the results depend on the processing

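The folds of both genes kept their direction in all 15 alternatives. The genes were chosen for large folds in these libraries, so nothing is read from that. Each fold moved by less than the larger of the gene's group SDs on the log2 scale (0.376 for lncRNA:CR40469 and 0.410 for CG40486). In the fit on 4 libraries lncRNA:CR40469 moved by more than its Kdm3 KO SD of 0.247. lncRNA:CR40469 ranged from 5.98 to 6.52 on the log2 scale (5.98 to 6.34 with 1 library left out) and CG40486 from 4.72 to 5.15 (the same range with 1 library left out). CG40486 fell under 30-fold in 4 of the 15: without Kdm3 KO replicate 1 (27.1), without wBerlin replicates 1 or 3 (26.3 and 29.5) and with no filter (29.7). Called genes over the whole table numbered 432, against 768 with the filter of 5 CPM, 916 by DESeq2, 779 with the replicate block, 1082 in the 4 libraries (an alternative added after seeing the data) and 243 to 735 with 1 library left out. The count was 726 without Kdm3 KO replicate 2 and 267 without Kdm3 KO replicate 3; the extremes were 243 without wBerlin replicate 2 and 735 without wBerlin replicate 1. Same-numbered libraries' deviations correlated at 0.34, 0.25 and −0.05, and those of differently numbered libraries at −0.33 to 0.18. With 3 libraries per group these values cannot show whether same-numbered libraries shared a batch. With the replicate block, lncRNA:roX2 also passed (adjusted p = 0.0377) and CG43448 did not (0.0530). X calls numbered 93 with upper quartile scaling, 84 with total count scaling, 113 with the filter of 5 CPM, 122 by DESeq2, 95 with the replicate block, 139 in the 4 libraries and 28 to 100 with 1 library left out, against 49. Within 250 kb of CG40486, 1 gene was called under each of the filter of 5 CPM, upper quartile scaling and total count scaling, 2 in the 4 libraries, and 0 to 1 with 1 library left out; within 1000 kb there were 2, and 1 around lncRNA:CR40469. Dosage compensation genes numbered 1 with total count scaling, 2 with the filter of 5 CPM, 2 by DESeq2, 1 with the replicate block and 0 to 1 with 1 library left out. Telomere capping genes numbered 1 with the filter of 5 CPM. Juvenile hormone genes numbered 1 with total count scaling, with the filter of 5 CPM and by DESeq2, 2 in the 4 libraries and 0 to 2 with 1 library left out. FOHSDR relatives numbered 2 in the 4 libraries and 0 to 1 with 1 library left out. The cause of these changes was not tested. For 35 other genes that the naming rule gives there were 516 comparisons with an alternative. Of these 486 kept their side of the threshold, 19 were called only under the alternative and 11 lost the call, 10 of them CG43448. In 38 of the 486 a gene called in neither changed sign. Of the called genes named outside the rule, 10 were followed over the alternatives, and Amy-p, Amy-d and lncRNA:CR46123 were not. Of those followed, 7 lost the call at least once, in 25 of 149 comparisons. At 17 to 28 reads per wBerlin library, depth limits the fold of CG40486.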

Other observations

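The juvenile hormone genes were listed after the data were seen because of the synonym FOHSDR. Of 13 tested genes 0 were called by edgeR, 1 higher by DESeq2 and 0 by limma voom. Over all tested genes the shares were 3.07%, 6.51% and 2.77%, and at 13 genes these counts are near them. In this list 2 genes had an unadjusted p under 0.05 (14.6% of all tested genes), and the median log2 fold change was 0.08. Jheh1, a juvenile hormone epoxide hydrolase gene, was at 117 ± 26.1 CPM in Kdm3 KO and 85.2 ± 3.40 CPM in wBerlin (SD, n = 3 each; log2 fold change 0.46, edgeR adjusted p = 0.159). Jhe, a juvenile hormone esterase gene, was at 30.5 ± 5.03 CPM in Kdm3 KO and 23.5 ± 0.458 CPM in wBerlin (SD, n = 3 each; log2 fold change 0.38, edgeR adjusted p = 0.174). Both passed without Kdm3 KO replicate 2 (edgeR adjusted p = 0.0117 for Jheh1 and 0.0130 for Jhe). Kr-h1, a transcription factor gene induced by the hormone, had a log2 fold change of 0.16 (edgeR adjusted p = 0.466).

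Gene models with names that start with CG40, CG41, CR40 or CR41, other than lncRNA:CR40469 and CG40486, were also counted. Of 60 such models 26 were tested, 0 rose and 2 fell by edgeR, which is 7.69% against 3.07% of all tested genes (8 had an unadjusted p under 0.05, against 14.6% of all tested genes; DESeq2 called 0 higher and 4 lower, limma voom 0 and 2), with a median log2 fold change of 0.02 and a highest value of 0.95. CG40472 was at 2.14 CPM in Kdm3 KO and 7.14 CPM in wBerlin (log2 fold change −1.73, edgeR adjusted p = 0.000976). CG40198 was at 23.3 CPM in Kdm3 KO and 33.6 CPM in wBerlin (log2 fold change −0.53, edgeR adjusted p = 0.0308); its call was lost without Kdm3 KO replicate 1 (adjusted p = 0.0975) and without wBerlin replicate 2. At the ends of the 5 arms, the 10 tested genes nearest each end gave 100 genes, with a median of 0.01. Of these 2 rose and 2 fell by edgeR, near the 3.07% over all tested genes. DESeq2 called 4 higher and 4 lower (6.51% of all tested genes) and limma voom 2 and 3 (2.77%). There were 24 at an unadjusted p under 0.05, 9 higher and 15 lower, against 14.6% of all tested genes. The 2 that fell by edgeR were 28SrRNA-Psi:CR45859, at −0.89, and the noncoding gene lncRNA:CR46123 on arm 3R, at −1.73 (edgeR adjusted p = 0.0129 and 0.0114). The 2 that rose were Lsp1gamma, a larval storage protein gene, at 1.75 (edgeR adjusted p = 0.00881, and 0.0588 in the 4 libraries left without Kdm3 KO replicate 2 and wBerlin replicate 1), and the pseudogene CR43170, at 2.10 (edgeR adjusted p = 0.00432).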
